A study of Mus musculus with 4 samples.

Results

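The genes that handle oxidative and heme stress were followed in muscle satellite cells, the resident stem cells that rebuild muscle fibres, after deletion of the histone deacetylase HDAC4. The group holds 43 genes of the NRF2 response, of glutathione and thioredoxin metabolism, and of heme and iron handling, out of 43437 gene IDs. The members were chosen by name with earlier results of the same 4 libraries known, in which Hmox1 stood out in HDAC4 KO against control. Differences between these groups are therefore a description of the chosen genes, and the tests across all genes are printed beside them only as background. All 43 symbols were found, and 42 members had a mean of at least 1 FPKM (fragments per kilobase of transcript, scaled to library size) and entered the comparison. Gstp1, a glutathione transferase, was listed at 0 in every library. It is annotated a second time on a patch sequence, also listed at 0, so its level is uncertain.

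RNA sequencing was performed on satellite cells of C57BL/6 mice aged 4 weeks, sorted from dissociated muscle and cultured for 24 h in growth medium. Every mouse carried HDAC4fl/fl Pax7CE/+ Cre, in which an inducible Cre sits in the Pax7 gene and leaves 1 working Pax7 allele, and the Pax7 promoter limits deletion to cells of that lineage. The 2 control libraries (control 3 and control 4) came from mice given vehicle, and the 2 HDAC4 KO libraries (HDAC4 KO 3 and HDAC4 KO 4) from mice given TMX (tamoxifen), which activates Cre. The loss of HDAC4 and the exposure to TMX cannot be told apart in these libraries. The labels do not say that the libraries came from separate animals, so a p-value reflects no more than how far these samples spread. In such bulk libraries, fewer cells of a type and less RNA per cell cannot be told apart either.

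NRF2, encoded by Nfe2l2, is a transcription factor that KEAP1 holds in the cytoplasm and sends to degradation until oxidants or electrophiles modify KEAP1. It then pairs with a small MAF protein on antioxidant response elements, from which the heme-sensing repressor BACH1 is displaced, and switches on enzymes that make glutathione, reduce quinones and peroxides and break down heme. In skeletal muscle, this programme is known to protect satellite cells and myofibres during injury and regeneration.

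Promoters were read from RefSeq (GRCm38.p6, 250 bases before to 50 after the start) for 36 of the 43 members. Promoter sequences of Hmox1, Gsta4, Gsr, Gclc, Prdx6, Slc40a1 and Sod3 were not used here. The core of the antioxidant response element, TGACNNNGC on either strand, was found in 12 of these 36 promoters, or 33.3%, and in 14.0% of the 27025 gene symbols with a promoter. It is shown, with the core in capitals, for 5 members with different patterns below: Maff, Gclm, Prdx1 and Txnrd1, higher in each HDAC4 KO library than in either control, and Mt2, whose groups overlapped. The windows were chr15:79346489-79346537 for Maff, chr3:122245403-122245451 for Gclm, chr4:116685446-116685494 for Prdx1, chr10:82859094-82859142 for Txnrd1 and chr8:94172519-94172567 for Mt2, all on the plus strand and all before the start of transcription.
Maff: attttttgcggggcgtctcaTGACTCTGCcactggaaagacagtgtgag
Gclm: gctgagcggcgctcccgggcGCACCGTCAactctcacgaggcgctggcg
Prdx1: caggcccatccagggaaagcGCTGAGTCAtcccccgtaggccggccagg
Txnrd1: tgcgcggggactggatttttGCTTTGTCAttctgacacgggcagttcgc
Mt2: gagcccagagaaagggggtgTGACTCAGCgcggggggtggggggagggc
In Maff and Mt2 the core reads on the strand of the gene, and in Gclm, Prdx1 and Txnrd1 on the opposite strand. A match of these letters describes the sequence and does not show that a factor binds it. Of the 12 members with the core, 7 were higher in both HDAC4 KO libraries, 0 were lower in both and 5 overlapped. Of the 23 tested members whose promoter lacked it, 11 were higher in both, 3 were lower in both and 9 overlapped. Of all genes tested, 30.8% were higher in both and 17.6% lower in both.

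Before the members, the libraries were checked against their labels. Hdac4 was at 0.926 and 1.07 times the control mean in control 3 and control 4, and at 0.29 and 0.433 times in HDAC4 KO 3 and HDAC4 KO 4, so that it was lower in both HDAC4 KO libraries. Satellite cell and myoblast markers were present in every library, with a summed level of 1050 and 1292 FPKM in the controls and 1058 and 1094 FPKM in the HDAC4 KO libraries. Myod1 was the largest part of these sums, at 633 and 833 FPKM in the controls and 563 and 530 FPKM in HDAC4 KO. The list did not move as a whole, since Pax7, Myf5 and Myod1 were lower in both HDAC4 KO libraries (log2 differences of -0.20 ± 0.11, -0.29 ± 0.09 and -0.41 ± 0.16, SE) and Cd34 and Sdc4 higher in both (0.60 ± 0.13 and 0.48 ± 0.16, SE). The part of these shifts in the results for the members was not tested. Control 3 stood apart. Its mature myofibre markers summed to 1609 FPKM, against 143 in control 4 and 107 and 214 in the HDAC4 KO libraries, and its red blood cell markers to 37.8 FPKM, against 2.12, 1.43 and 3.27. The counts and the median over the members, and the log2 differences of the members described in full, are therefore also given without control 3. These sums contain markers whose level was estimated, as described next.

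**Figure D1:**
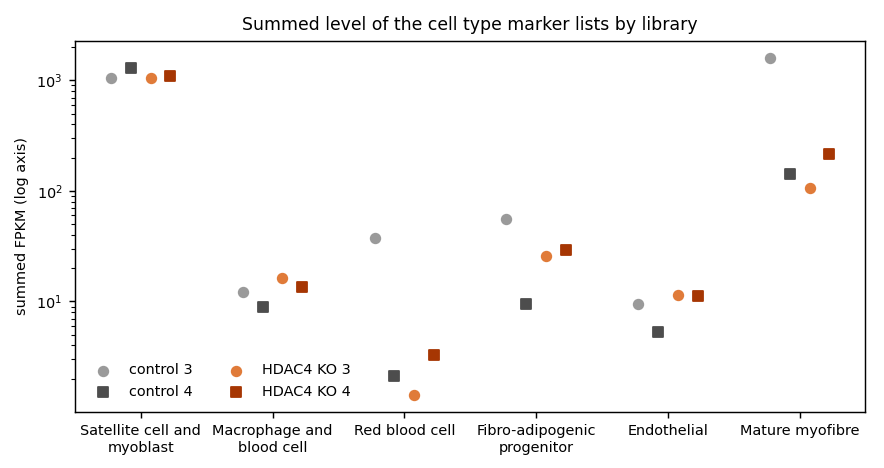
Summed FPKM of each cell type marker list (log axis) in the 4 libraries, with circles for libraries 3 and squares for libraries 4, controls in grey and HDAC4 KO in orange and brown. Control 3 has the highest mature myofibre sum (1609) and red blood cell sum (37.8), while the satellite cell and myoblast sum lies between 1050 and 1292, although 3 of its genes are lower and 2 higher in both HDAC4 KO libraries.

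Most deposited values of 1 FPKM or more had lost their decimal point, which was put back from the confidence bounds and the pooled group values. The ratios between libraries were settled for all 42 members. For 16 of them the level was fixed too, and FPKM is printed. For the other 26 a power of 10 common to all 4 libraries had to be estimated, and each library is printed as a ratio to the mean of the 2 controls, which does not depend on it. Differences are HDAC4 KO minus control on the log2(FPKM + 1) scale, with the standard error (SE) of the fit, and an open level changes them only through the added 1.

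Across the group, 22 of the 42 members were higher in each HDAC4 KO library than in either control, 3 were lower in both and 17 overlapped. Among all 12233 genes tested, the shares were 30.8% and 17.6%. The median log2 difference of the members was 0.23, against 0.04 over all genes tested, and it was 0.23 without Hmox1. These counts and medians used unscaled FPKM. The median-ratio size factors were 0.975 for control 3, 0.9818 for control 4 and 1.018 for each HDAC4 KO library. With that scaling, the median was 0.17 for the members and -0.01 over all genes, and the counts were not repeated. Without control 3, 25 members were above control 4 in both HDAC4 KO libraries and 8 were below it in both, where 44.3% of all genes were above and 30.0% below, and the median of the members was 0.16. Since the members were proposed from this contrast, nothing is read from these shares.

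No member passed limma's test at a Benjamini-Hochberg adjusted p under 0.05 with genes of every type tested together. That test called 0.114% of all genes, and it did not call the deleted gene itself either. All 42 tested members are protein-coding, and it called none of the 10685 protein-coding genes. The 0.114% is therefore not a matched background, and nothing is read from the absence of members among the genes called. Hdac4 had a log2 difference of -1.13 ± 0.19 (SE) and a limma adjusted p of 0.213. At an unadjusted p under 0.05, 11 members were higher and 1 was lower, where 10.7% of all genes were higher and 3.59% lower. With the 10685 protein-coding genes tested alone, 0.711% of genes were called higher. Hmox1 and Gpx3 passed (2 of 42 members), with limma adjusted p = 0.0415 and 0.0334. Hdac4 passed as well, with limma adjusted p = 0.0416. In that fit no member passed without HDAC4 KO 3, and without HDAC4 KO 4 Hmox1 did not (limma adjusted p = 0.0883) while Gpx3 and Gsta4 did. It called 2 members without control 3 and 6 without control 4. The share of all protein-coding genes called moved as well, to 1.51% and 4.82% when control 3 or control 4 was left out, and to 0.140% and 0.225% when HDAC4 KO 3 or HDAC4 KO 4 was.

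**Figure D2:**
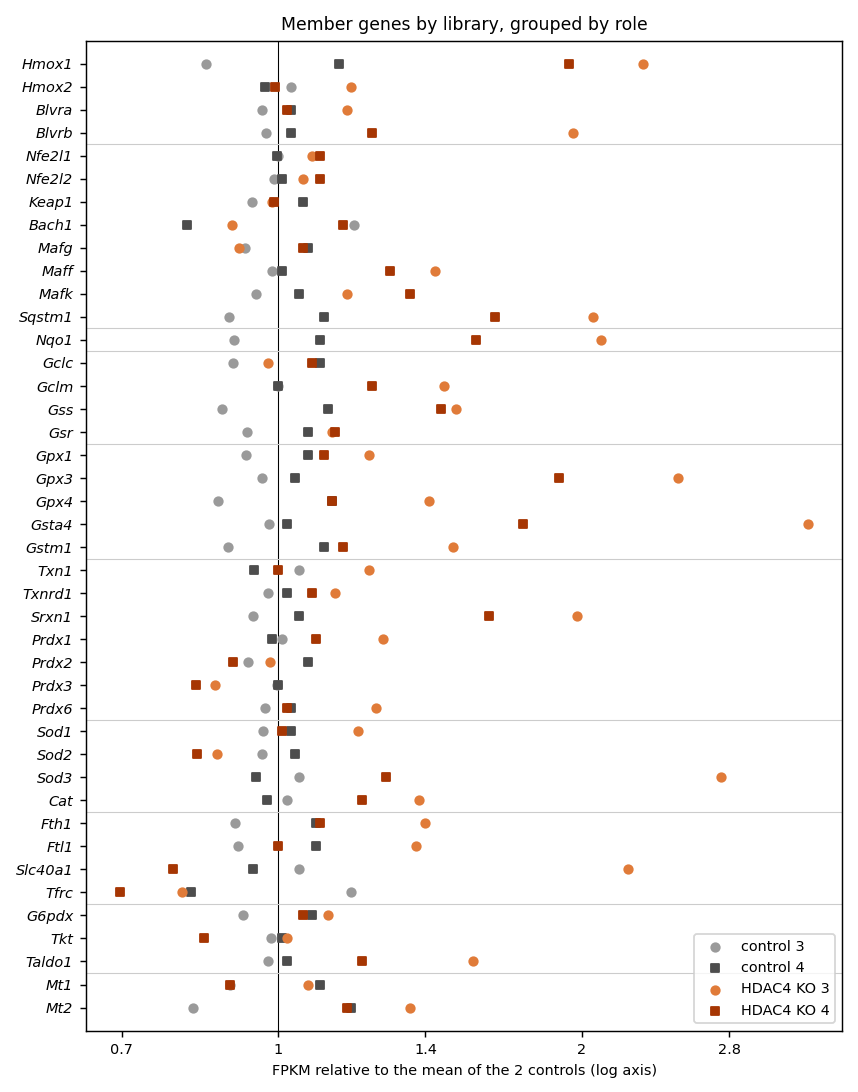
FPKM of the 42 tested members in each library relative to the mean of the 2 controls (log axis), grouped by role from heme breakdown at the top to metallothioneins at the bottom. Circles are libraries 3 and squares libraries 4, controls in grey and HDAC4 KO in orange and brown. In 22 members both HDAC4 KO points lie to the right of both control points, and HDAC4 KO 3 lies to the right of HDAC4 KO 4 in 34 of 42.

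Hmox1 encodes heme oxygenase 1, the inducible enzyme that cleaves heme to biliverdin, carbon monoxide and iron (ENSMUSG00000005413, GRCm38 chromosome 8, 75093591 to 75100596). Its FPKM was 289 in control 3 and 393 in control 4, against 784 in HDAC4 KO 3 and 662 in HDAC4 KO 4. Both HDAC4 KO values lay above both controls, and the group means were 341 ± 73.5 and 723 ± 86.8 FPKM (SD, n = 2 each), a ratio of 2.12. The confidence bounds deposited with each value did not meet between the groups. The highest upper bound of a control was 407 FPKM and the lowest lower bound of an HDAC4 KO library was 639 FPKM. Such bounds give the precision within a library and not the spread between samples. They were apart for 14 members higher in both HDAC4 KO libraries, Hmox1 among them, and for 2 lower in both. Members with small log2 differences were among them, such as Txnrd1 (0.15) and Prdx3 (-0.24). The share over all genes was not counted, so nothing is read from these counts. The log2 difference of Hmox1 was 1.09 ± 0.19 (SE), and 0.87 without control 3.

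Macrophages, which take up heme, also express Hmox1, and the macrophage and blood cell list was examined beside it. The list summed to 12.2 and 8.88 FPKM in the controls and to 16.3 and 13.5 FPKM in the HDAC4 KO libraries. The levels of Lyz2 and Cd14 in these sums were estimated. Of the 11 measured genes of the list, 3 (Cd68, Lyz2 and Cd14) were higher in both HDAC4 KO libraries and the others overlapped. Of all genes tested, 30.8% were higher in both. Lyz2, encoding lysozyme, was at 1.14 and 0.865 times the control mean in the controls and 2.99 and 2.11 times in HDAC4 KO. Ptprc, the leukocyte antigen CD45 used to exclude blood cells in the sort, was at 0.0275 FPKM or less in every library, and C1qa, a complement gene of macrophages, was highest in control 3 (0.553 FPKM) and at 0.17 FPKM or less in the others. Some markers of other cell types were also higher in both HDAC4 KO libraries. They were 2 of 5 endothelial markers (Cdh5, at 1.21 and 0.785 times the control mean in the controls and 2.05 and 1.72 times in HDAC4 KO, and Tek) and 2 of 5 fibro-adipogenic progenitor markers (Dcn and Pdgfra, the latter at 0.907 and 0.435 FPKM in the controls against 1.33 and 1.3 FPKM in HDAC4 KO). Pdgfra averaged under 1 FPKM and was not among the genes tested. Dcn gave 9.86 FPKM in control 3 and 3.69 FPKM in control 4, against 10.4 and 10.3 FPKM in HDAC4 KO. Its log2 difference of 0.67 ± 0.42 (SE) was 0.06 without control 4. The other endothelial (Pecam1, Kdr and Emcn) and fibro-adipogenic markers (Ly6a, Lum and Col1a1) overlapped, where 30.8% of all genes tested were higher in both. The endothelial list summed to 9.4 and 5.25 FPKM in the controls and to 11.4 and 11.1 FPKM in HDAC4 KO. The fibro-adipogenic list summed to 55.4 and 9.5 FPKM in the controls and to 25.6 and 29.4 FPKM in HDAC4 KO. The part of such cells in the Hmox1 result and in those of the other members was not tested.

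The enzymes next to HMOX1 differed less. Blvrb, a biliverdin reductase of the B type that also reduces flavins, was at 0.974 and 1.03 times the control mean in the controls, 1.96 times in HDAC4 KO 3 and 1.24 times in HDAC4 KO 4. It was higher in both HDAC4 KO libraries, with a log2 difference of 0.63 ± 0.24 (SE) that was 0.30 without HDAC4 KO 3 and 0.59 without control 3. Blvra, the main reductase that turns biliverdin into bilirubin, overlapped between groups, with ratios of 0.965 and 1.03 in the controls against 1.17 and 1.02 in HDAC4 KO, and a log2 difference of 0.13, or 0.08 without control 3. Hmox2, the constitutive heme oxygenase, overlapped as well, with ratios of 1.03 and 0.972 in the controls against 1.18 and 0.993 in HDAC4 KO, and a log2 difference of 0.11, or 0.15 without control 3.

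**Figure D3:**
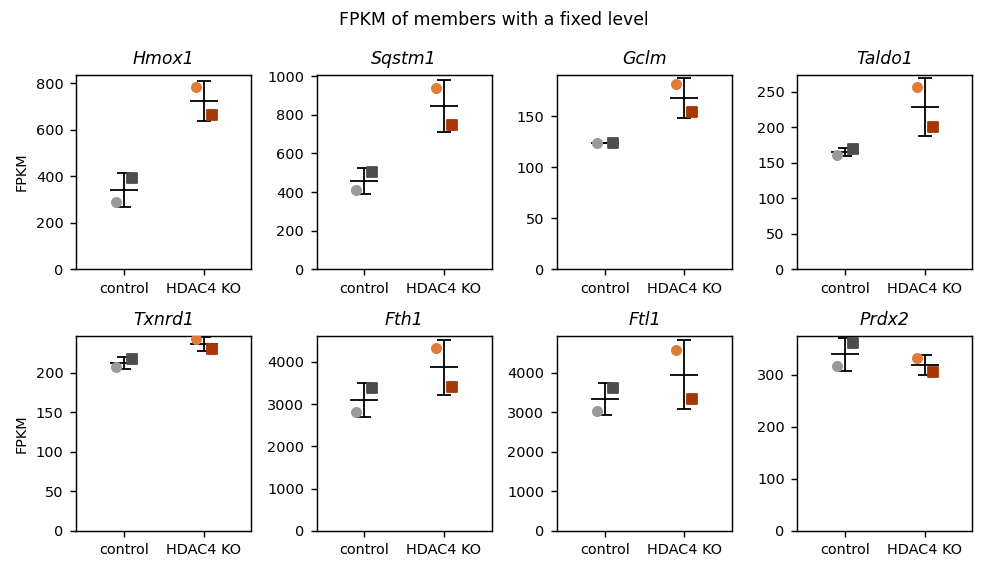
FPKM of 8 members with a fixed level. Points are single libraries (circles libraries 3, squares libraries 4), horizontal lines are group means and error bars the SD of 2 libraries. Hmox1 and Sqstm1 lie well apart between groups (Hmox1 at most 393 in control and at least 662 in HDAC4 KO), while Ftl1 and Prdx2 overlap.

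The genes of the NRF2 switch itself differed little between groups. Nfe2l2 was at 0.992 and 1.01 times the control mean in the controls and at 1.06 and 1.1 times in HDAC4 KO, higher in both but with a log2 difference of 0.11 ± 0.08 (SE), which was 0.05 with median-ratio scaling, 0.06 with quantile normalization and 0.10 without control 3. Nfe2l1, which encodes the related factor NRF1, gave 69.5 and 69.1 FPKM in the controls and 75 and 75.9 FPKM in HDAC4 KO. Its log2 difference was 0.12 ± 0.08 (SE), 0.07 with either scaling and 0.13 without control 3.

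Keap1, the adaptor that brings NRF2 to degradation, overlapped at 0.943 and 1.06 times the control mean in the controls and 0.987 and 0.991 times in HDAC4 KO, with a log2 difference of -0.01, or -0.09 without control 3. Bach1, the repressor that competes for the same elements, overlapped with its widest values in the controls (1.19 and 0.813), against 0.9 and 1.16 in HDAC4 KO, and its log2 difference of 0.05 was 0.28 without control 3 and -0.18 without control 4. The small MAF partners differed among themselves, a contrast that was not tested. Maff was at 0.987 and 1.01 times the control mean in the controls and 1.43 and 1.29 times in HDAC4 KO, with a log2 difference of 0.39 ± 0.11 (SE), or 0.37 without control 3. Mafk stood at 0.951 and 1.05 times in the controls and 1.17 and 1.35 times in HDAC4 KO, with a log2 difference of 0.30 ± 0.12 (SE), 0.24 without control 3 and 0.20 without HDAC4 KO 4. Mafg overlapped with a difference of -0.02 ± 0.13 (SE), or -0.12 without control 3.

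Sqstm1 encodes p62, an autophagy receptor that binds KEAP1 and is itself an NRF2 target. Its FPKM was 410 and 506 in the controls and 939 and 749 in the HDAC4 KO libraries, with no overlap. The log2 difference was 0.88 ± 0.17 (SE), and 0.73 without control 3.

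Among the enzymes that NRF2 is best known to induce, Nqo1, the quinone reductase, was at 0.904 and 1.1 times the control mean in the controls and 2.09 and 1.57 times in HDAC4 KO. The groups did not overlap, and the log2 difference was 0.85 ± 0.18 (SE), or between 0.71 and 0.86 over the levels its decimal points allow, and 0.71 without control 3. Srxn1, sulfiredoxin, which restores overoxidised peroxiredoxins, was at 0.945 and 1.05 times in the controls and 1.98 and 1.62 times in HDAC4 KO. Its groups did not overlap either, with a log2 difference of 0.77 ± 0.13 (SE), or 0.70 without control 3.

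Glutathione is made by glutamate-cysteine ligase and glutathione synthetase, and reduced again by glutathione reductase. Gclm, the modifier subunit of the ligase, gave 124 FPKM in each control and 182 and 154 FPKM in HDAC4 KO, higher in both, with a log2 difference of 0.43 ± 0.11 (SE) that was also 0.43 without control 3. Gclc, its catalytic subunit, overlapped, with ratios to the control mean of 0.903 and 1.1 in the controls against 0.977 and 1.08 in HDAC4 KO. The subunits of 1 enzyme thus showed log2 differences of 0.43 and 0.05 (for Gclc -0.01 with median-ratio scaling and -0.09 without control 3), a contrast that was not tested. Gss, the synthetase, was at 0.881 and 1.12 times the control mean in the controls and 1.5 and 1.45 times in HDAC4 KO, with a log2 difference of 0.55 ± 0.14 (SE), or 0.38 without control 3. Gsr, the reductase, was higher in both HDAC4 KO libraries by a smaller log2 difference of 0.18 ± 0.10 (SE), which was 0.08 without control 3, 0.28 without control 4 and 0.12 with either scaling.

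All 5 measured glutathione peroxidases and transferases had log2 differences above 0, and 4 of them were higher in both HDAC4 KO libraries, where 57.3% of all genes were above 0 and 30.8% higher in both. Gsta4, a transferase that conjugates the lipid peroxidation product 4-hydroxynonenal, had a log2 difference of 1.25 ± 0.32 (SE) at its estimated level, above Hmox1 at 1.09, and of 1.05, below Hmox1, at the lowest level its decimal points allow. It was at 0.979 and 1.02 times the control mean in the controls, 3.35 times in HDAC4 KO 3 and 1.75 times in HDAC4 KO 4, so the HDAC4 KO libraries were also far from each other, and the difference was 0.79 without HDAC4 KO 3 and 1.22 without control 3. Gpx3, the secreted peroxidase, was at 0.965 and 1.04 times in the controls and 2.49 and 1.9 times in HDAC4 KO, with a log2 difference of 1.07 ± 0.16 (SE). Its level is estimated, and over the allowed levels the difference ran from 0.78 to 1.07, and it was 1.03 without control 3.

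Gstm1 was at 0.892 and 1.11 times the control mean in the controls and 1.49 and 1.16 times in HDAC4 KO, with a log2 difference of 0.40 ± 0.18 (SE), which was 0.25 without control 3 and 0.22 without HDAC4 KO 3. It belongs to a cluster of similar genes, among which reads can be shared. Gpx1, the main cytosolic peroxidase, gave 576 and 663 FPKM in the controls and 763 and 689 FPKM in HDAC4 KO, close above control 4. Gpx4, which reduces lipid peroxides in membranes, gave 344 and 444 FPKM in the controls and 557 and 444 FPKM in HDAC4 KO, so that HDAC4 KO 4 equalled control 4 at this rounding.

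In the thioredoxin branch, 3 of 7 members were higher in both HDAC4 KO libraries and 1 was lower in both. Of all genes tested, 30.8% were higher in both and 17.6% lower in both. Contrasts between these members were not tested. Txnrd1, cytosolic thioredoxin reductase, gave 207 and 217 FPKM in the controls and 242 and 230 FPKM in HDAC4 KO, higher in both by a log2 difference of 0.15 ± 0.09 (SE), which was 0.10 with median-ratio scaling and 0.07 with quantile normalization. Prdx1, a cytosolic peroxiredoxin, was higher in both by 0.23 ± 0.11 (SE), or 0.13 without HDAC4 KO 3 and 0.14 with quantile normalization. Prdx3, the mitochondrial peroxiredoxin, was at 0.997 and 1 times the control mean in the controls and 0.867 and 0.829 times in HDAC4 KO, lower in both, with a log2 difference of -0.24 ± 0.08 (SE). Txn1, Prdx2 and Prdx6 overlapped, with log2 differences between -0.09 and 0.18.

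The superoxide dismutases had log2 differences of either sign, and contrasts between them were not tested. Sod2, the mitochondrial enzyme, was at 0.964 and 1.04 times the control mean in the controls and 0.87 and 0.831 times in HDAC4 KO, lower in both, with a log2 difference of -0.22 ± 0.09 (SE). Sod1, the cytosolic enzyme, overlapped at 467 and 498 FPKM in the controls and 580 and 486 FPKM in HDAC4 KO. Sod3, the extracellular enzyme, was low throughout, at 1.14 and 1.03 FPKM in the controls, 2.99 FPKM in HDAC4 KO 3 and 1.39 FPKM in HDAC4 KO 4. Its log2 difference of 0.56 ± 0.30 (SE) was 0.19 without HDAC4 KO 3, 0.94 without HDAC4 KO 4 and 0.60 without control 3. Cat, catalase of the peroxisome, was at 1.02 and 0.976 times the control mean in the controls and 1.38 and 1.21 times in HDAC4 KO, with a log2 difference of 0.36 ± 0.11 (SE), or 0.39 without control 3.

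Iron freed from heme is stored in ferritin or exported by ferroportin, while the transferrin receptor takes up iron from outside the cell. The ferritin chains had the highest FPKM among the 16 members of fixed level. Fth1, the heavy chain, gave 2809 and 3382 FPKM in the controls and 4333 and 3402 FPKM in HDAC4 KO, where HDAC4 KO 4 was barely above control 4. Its log2 difference of 0.32 was 0.18 without control 3 and 0.14 without HDAC4 KO 3. Ftl1, the light chain, gave 3044 and 3628 FPKM in the controls and 4584 and 3334 FPKM in HDAC4 KO, and overlapped. Both ferritin genes have many processed pseudogenes, so reads may be split.

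Tfrc, the transferrin receptor, was at 1.18 and 0.821 times the control mean in the controls and 0.804 and 0.698 times in HDAC4 KO. It was lower in both, with a log2 difference of -0.35 ± 0.19 (SE), or -0.12 without control 3 and -0.58 without control 4. Slc40a1, ferroportin, was near the limit of the filter at 1.47 and 1.32 FPKM in the controls, 3.1 FPKM in HDAC4 KO 3 and 1.1 FPKM in HDAC4 KO 4. Its HDAC4 KO libraries lay on opposite sides of the controls.

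NADPH, which drives glutathione and thioredoxin reductase, comes largely from the pentose phosphate pathway. Of the members in this pathway, G6pdx makes NADPH, and Taldo1 and Tkt do not. Taldo1, transaldolase, gave 161 and 169 FPKM in the controls and 257 and 200 FPKM in HDAC4 KO, higher in both by a log2 difference of 0.46 ± 0.15 (SE), which was 0.28 without HDAC4 KO 3 and 0.42 without control 3. G6pdx, the first enzyme of the pathway, overlapped with a difference of 0.13 ± 0.11 (SE), and Tkt, transketolase, overlapped with a difference of -0.10 ± 0.12 (SE). The metallothioneins Mt1 and Mt2, cysteine-rich proteins that bind zinc and copper, both overlapped. Mt2 was at 0.824 and 1.18 times the control mean in the controls and 1.35 and 1.17 times in HDAC4 KO, and Mt1 differed by -0.02 ± 0.16 (SE).

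**Figure D4:**
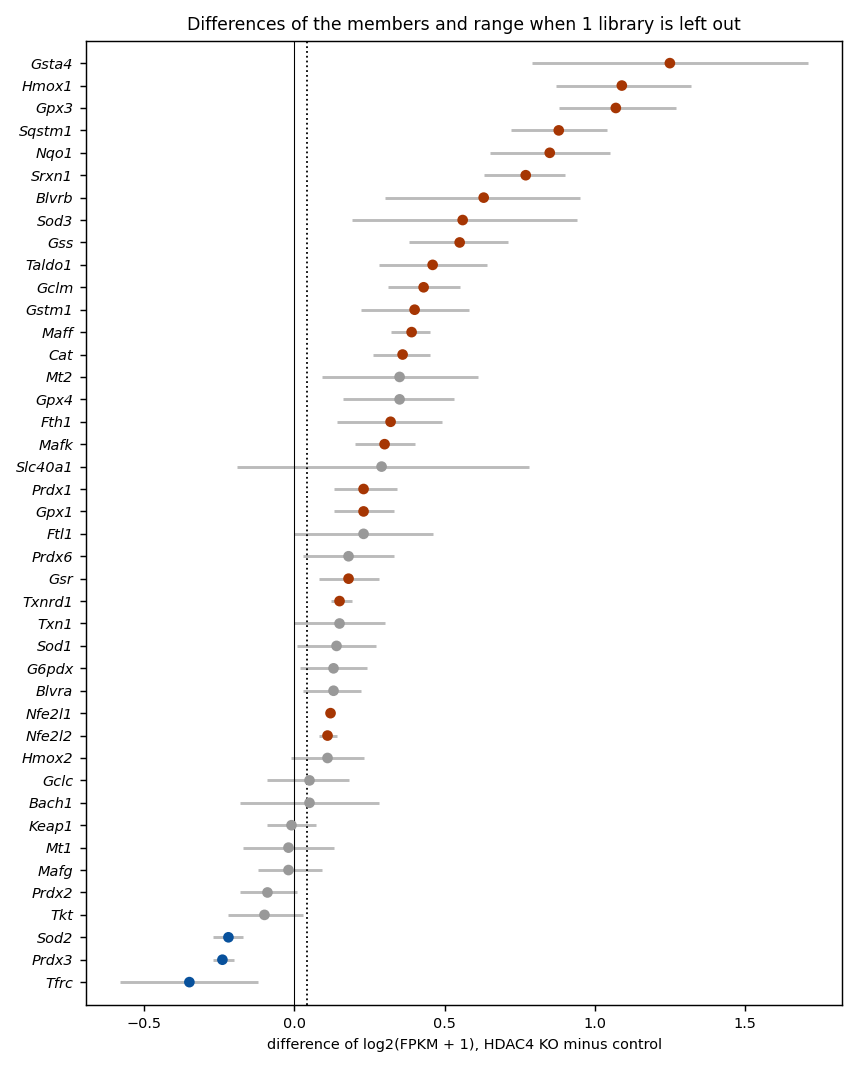
Difference of log2(FPKM + 1), HDAC4 KO minus control, for the 42 tested members in order of size. Points are the fit to all 4 libraries (brown higher in both HDAC4 KO libraries, blue lower in both, grey overlapping), grey bars the range when 1 library is left out, and the dotted line the median of all genes tested (0.04). Gsta4 (1.25, at its estimated level), Hmox1 (1.09) and Gpx3 (1.07) lie at the top and Tfrc (-0.35) at the bottom.

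The HDAC4 KO libraries were not alike for these genes. HDAC4 KO 3 exceeded HDAC4 KO 4 in 34 of 42 members, with a median difference of 0.23 on the log2(FPKM + 1) scale, against 50.1% of all genes tested and a median of 0.00. The exceptions lay mostly among the regulators, where HDAC4 KO 3 was the higher in 2 of 8. Control 4 exceeded control 3 in 32 of 42 members, by a median of 0.10. Over all genes it did so in 6590 of 12233, by a median of 0.02. The median of the members was 0.14 without HDAC4 KO 3 and 0.32 without HDAC4 KO 4.

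Beyond the members, 64 other genes of these pathways were counted from lists written with earlier results of these data known, and 54 of them were tested. None passed limma's test over genes of every type or over protein-coding genes alone, and at an unadjusted p under 0.05 12 were higher and 2 lower, where 10.7% and 3.59% of all genes were. Of the 54, 29 were higher in both HDAC4 KO libraries, 10 lower in both and 15 overlapped, with a median log2 difference of 0.18, beside 30.8% higher in both, 17.6% lower in both and a median of 0.04 over all genes. The same shares of all genes, 30.8% and 17.6%, are the background of each list that follows, and nothing particular to a list is read from its count.

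Among NRF2 targets and regulators, 10 of 12 tested were higher in both HDAC4 KO libraries and 0 lower in both, with a median log2 difference of 0.27 (30.8% and 17.6% of all genes). Ephx1, microsomal epoxide hydrolase, was at 0.801 and 1.2 times the control mean in the controls and 2.52 and 2.16 times in HDAC4 KO, a log2 difference of 1.12 ± 0.20 (SE). Cbr3, a carbonyl reductase, gave 23.2 and 29.8 FPKM in the controls and 47.5 and 36.8 FPKM in HDAC4 KO. Neither gene overlapped between groups.

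Among the genes of glutathione use, 9 of 13 tested were higher in both HDAC4 KO libraries and 1 lower in both, with a median log2 difference of 0.23 (30.8% and 17.6% of all genes). Gstm2, a transferase of the mu class, was at 0.968 and 1.03 times the control mean in the controls and 1.62 and 1.68 times in HDAC4 KO. Mgst1, a membrane-bound transferase, gave 11.6 and 11.7 FPKM in the controls and 18.9 and 17 FPKM in HDAC4 KO. The gene lower in both was Chac1, whose enzyme degrades glutathione, at 13.1 and 16.9 FPKM in the controls and 10.3 and 7.83 FPKM in HDAC4 KO.

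In the thioredoxin list, 3 of 9 tested were higher in both HDAC4 KO libraries and 1 lower in both, with a median log2 difference of 0.24. These shares, 33.3% and 11.1%, lie near the 30.8% and 17.6% of all genes. Sesn2 and Sesn3, stress-induced sestrins, differed by 0.59 ± 0.13 and 0.28 ± 0.12 (SE), and Txn2, the mitochondrial thioredoxin, by -0.14 ± 0.08 (SE). Sesn2 and Sesn3 were the higher in both HDAC4 KO libraries and Txn2 the lower.

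In heme synthesis and transport, 3 of 10 tested were higher in both HDAC4 KO libraries and 3 lower in both, with a median log2 difference of 0.05 (30.8% and 17.6% of all genes, median 0.04). Cpox and Alad, enzymes of heme synthesis, were lower in both by log2 differences of -0.40 ± 0.10 and -0.28 ± 0.13 (SE). Abcg2 and Slc48a1, heme transporters, were higher in both by 0.23 ± 0.14 and 0.16 ± 0.10 (SE). The difference of Alad was -0.13 without control 4, that of Abcg2 0.08 without control 4, and that of Slc48a1 0.08 without control 3.

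In iron handling, 4 of 10 tested were higher in both and 5 lower in both, with a median log2 difference of -0.13 (30.8% and 17.6% of all genes, median 0.04). Heph, the ferroxidase hephaestin, gave 1.54 and 1.31 FPKM in the controls and 2.49 and 2.34 FPKM in HDAC4 KO. Steap3, a ferrireductase, was higher in both by 0.20 ± 0.13 (SE), or 0.06 without control 3 and 0.35 without control 4. Fbxl5, which degrades iron regulatory protein 2 when iron is plentiful, and Pcbp1, an iron chaperone, were lower in both by log2 differences of -0.22 ± 0.12 and -0.20 ± 0.09 (SE). For Fbxl5 it was -0.13 without HDAC4 KO 3 and -0.14 without control 3.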

How the data were processed

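RNA from sorted satellite cells was sequenced in 2 control and 2 HDAC4 KO libraries. Per the labels and the study's methods, the authors made reads with CASAVA 1.8.2, trimmed them with ERNE and cutadapt, aligned them to GRCm38 with TopHat, and deposited FPKM values with confidence bounds per library (Cufflinks) and pooled FPKM per group (Cuffdiff). The authors' pooled table also holds fold changes, test statistics and p-values, which entered no calculation. Read depth cannot be read from FPKM, so no counting interval is given.

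Between 11652 and 11900 of 43496 entries per library had lost their decimal point. It was put back where the estimate lay midway between its bounds and the libraries gave the pooled value (tolerance 0.02 on the log2 scale). The midway rule was not applied where the lower bound was cut off at 0, and 61 genes were kept without agreement with the pooled values. Where several readings remained between groups, a score of bound width and spread chose among them. This score was revised after results were seen, and 3 versions were made: the revisions followed 10-fold differences in single genes that looked like misplaced points, and the authors' own fold changes of those genes had been seen when it was revised. The first and second versions called 21 and 14 genes of every type, and 102 and 98 protein-coding genes, against 14 and 83 in the version used. All 42 members had the same ratios in the 3 versions. A common power of 10, where open, was set by a random forest (scikit-learn 1.9.0), right for 2845 of 3124 hidden known levels (91.1%). That model was also replaced after earlier forms had been scored on hidden levels.

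Genes averaging 1 FPKM or more were tested with limma 3.58.1 (R 4.3.3) on log2(FPKM + 1), with a mean-dependent prior spread and Benjamini-Hochberg adjustment. The smallest p of an exact permutation test with 2 against 2 libraries is 0.333, so none was used. The scripts were tested on simulated data. The alternatives were the pseudocount, the filter, gene type, scaling, replicate block, prior spread, point restoration and leaving out each library. Members and lists were chosen with earlier results of these data known. The genes described in full were Hmox1, the other heme-breakdown enzymes, the regulators and members without overlap at a log2 difference of at least 0.3, and, from each further list, up to 2 per direction with the largest difference among those without overlap. Other members named were chosen after their values were seen.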

Additional observations from a re-analysis of the deposited data

How the results depend on the processing

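Hmox1 kept its direction under every alternative, with a log2 difference from 0.87 to 1.32. In the planned fits of all 4 libraries its limma adjusted p was 0.0415 with protein-coding genes alone and 0.175 to 0.363 otherwise. The lowest limma adjusted p, 1.21e-07, came from protein-coding genes with a replicate block, a fit chosen after seeing the data. The median log2 difference of the members was 0.13 with quantile normalization and from 0.14 to 0.32 when 1 library was left out (0.16 without control 3), against 0.23. The count of members called was 0 over genes of every type by limma, where no protein-coding gene was called. It was 2 with protein-coding genes alone, also under the first and second versions of the point score. Among protein-coding genes it was 0 to 6 when 1 library was left out, and 0 without HDAC4 KO 3, while all protein-coding genes called numbered 15 without HDAC4 KO 3, 24 without HDAC4 KO 4, 161 without control 3 and 515 without control 4, of 10685. Of the other pathway genes, 0 to 6 were called in the same fits, and 1 (Ephx1) under each earlier version of the point score. With a replicate block, 0 members and 0 other pathway genes were called over genes of every type, with 12233 genes tested and 7 called against 14. Among protein-coding genes the block called 8 members and 9 other pathway genes, and 703 genes against 83. The replicate numbers do not pair the libraries by any label, and deviations of same-numbered libraries correlated at -0.0847 over 12233 genes. Over all genes, 2 were called without the filter on low values, 4 and 33 with open powers of 10 at their lowest and highest, and from 0 to 101 with 1 library left out, of which 93 were without control 3 and 101 without control 4. The alternatives with protein-coding genes and a block or a library left out, with extreme powers of 10, and with earlier versions of the score were chosen after seeing the data. FPKM gives no depth, and the precision of low genes such as Sod3 and Slc40a1 is limited, with 2 libraries a group. The deposited bounds lay 35.6% to 62.2% of the value to either side for Slc40a1, by library, and 9.73% to 16.1% for Sod3. For both genes the bounds overlapped between the groups.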
